A study of Mus musculus with 19 samples.

Results

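Ribosomal protein paralog pairs are formed by a standard ribosomal protein gene and a like-named second copy elsewhere in the genome. The 4 genes described here are Rpl22l1 and its partner Rpl22, of the large ribosomal subunit, and Rps27l and its partner Rps27, of the small subunit. They were found by the accession of their array probes and are 4 of the 19315 genes tested. The members were chosen by their log2 lung over reference ratios across the dose groups, so their differences between doses are given as a description with no test.

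Ribosomes are built from ribosomal RNA and a fixed set of proteins, and a few of these proteins have a paralog that can take the same place. In mice, the Rpl22 protein binds RNA and holds down the expression of Rpl22l1, so that Rpl22l1 is higher where Rpl22 is lost. Rps27l is a known target of p53, the transcription factor switched on by DNA damage, and its protein, like that of Rps27, interacts with the p53 regulator Mdm2. Most transcripts of ribosomal proteins begin with a run of pyrimidines at the 5′ end, through which their translation is regulated as a group.

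The animals were male mice of the transgenic strain 40.6 (MutaMouse, which carries a reporter for scoring mutations), 25 weeks old, gavaged daily for 28 days with benzo(a)pyrene (BaP, a combustion product whose metabolites bind DNA) or with vehicle. Lung tissue was sampled 3 days later. The daily dose was 0 (vehicle) in 5 mice, 25 mg/kg in 5, 50 mg/kg in 4 and 75 mg/kg in 5. The series' design plans 5 mice in every group, and 4 of the 50 mg/kg/day group are described here. All mice carried the same transgene. Each lung RNA (Cy5) shared an array with a universal mouse reference RNA pooled from 11 cell lines (Cy3), with no dye swap, so a value is a log2 ratio of lung over reference, where 0 is the reference level. Whole lung RNA was measured, so fewer cells of a type and less RNA per cell cannot be told apart.

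Of 12 markers of lung epithelium, 11 were tested, and all 11 were above the reference in control lungs, among them Sftpc of type 2 cells (137-fold), Scgb1a1 of club cells (164-fold) and Ager of type 1 cells (34.6-fold). The lung channel had 19777 to 27279 spots well above background on single arrays. Control 5 stood apart by markers of skeletal muscle, with a mean of 3.64 above the control mean on the log2 scale, against -1.23 to -0.56 in the other controls. The quality report of the scanner software marked 4 arrays for evaluation, those of controls 1 and 3 and of treated mice 12 (50 mg/kg/day) and 20 (75 mg/kg/day). Results without these arrays are given beside the pair values.

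All 4 genes lay on bright probes, well above background in both channels on all 19 arrays. Over local background, the lung signal had a median of 2292 intensity units for Rpl22l1, 10653 for the brighter of 2 Rpl22 probes, 8697 for Rps27l and 35693.5 for Rps27, on the linear scale of the scanner. Probe sequences were not used here, so how far a probe also binds a partner or a processed copy was not tested. By RefSeq (GRCm38.p6), Rpl22l1 lies on chromosome 3 (28805508 to 28807424), Rps27 also on chromosome 3 (90212667 to 90213648), Rpl22 on chromosome 4 (152324436 to 152334082) and Rps27l on chromosome 9 (66944624 to 66949522).

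The start regions of the paralogs and of Rps27 are shown because a start in pyrimidines is the feature that ribosomal protein transcripts share. Each line gives the 70 bases before and 30 bases from an annotated RefSeq start (GRCm38.p6), 5′ to 3′ on the strand of the gene, and capitals mark the longest run of C and T that touches the 10 bases on either side of the start.
Rpl22l1, chr3:28805438-28805537, plus strand: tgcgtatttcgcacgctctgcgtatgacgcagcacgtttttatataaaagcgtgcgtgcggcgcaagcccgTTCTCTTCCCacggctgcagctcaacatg
Rps27, chr3:90213619-90213718, minus strand: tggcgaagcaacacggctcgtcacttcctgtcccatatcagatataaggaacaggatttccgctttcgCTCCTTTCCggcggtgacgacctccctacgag
Rps27l, chr9:66946016-66946115, plus strand: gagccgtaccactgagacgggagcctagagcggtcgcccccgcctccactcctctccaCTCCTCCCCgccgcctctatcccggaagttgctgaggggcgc

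The run was 10 bases in Rpl22l1, 9 in Rps27 and 9 in this Rps27l window, where it ended before the start. Both annotated Rps27l windows lie inside the span of the gene given above, which begins further upstream. In the other Rps27l window the run was 4 bases, and in the pair of annotated Rpl22 windows it was 5 and 4 bases. A run of at least 5 bases was present in 67.7% of 65 windows of the other ribosomal protein genes and in 44.9% of all 32851 windows of 300 bases. The TATA box letters TATAAA, searched on both strands over those 300 bases, occurred in the Rpl22l1 window on both strands, where the matches overlap, and in 1 Rpl22 window, against 13.6% of all windows. CCGGAAG, the core of ETS factor sites, occurred in the Rps27l window printed above, against 8.86% of all windows and 38.5% of those of ribosomal protein genes. A match of letters describes the sequence and is not a measured site.

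Rps27l also has a second annotated start, and the window before it held a pair of matches to the consensus half-site of p53, which a full site pairs within 13 bases. They are shown because Rps27l followed p53 target genes in the arrays, and the capitals are the matched bases.
Rps27l half-site, chr9:66946203-66946212, plus strand: GGGCTTGCTT
Rps27l half-site, chr9:66946306-66946315, plus strand: AGACTTGTCC
The half-sites were 93 bases apart, so they do not form a full site by that spacing. Both lie downstream of the first annotated Rps27l start, whose window is printed above, and upstream of the second. Windows with at least 2 half-sites made up 0.359% of all windows. They were 1 of 31 windows of the p53 target list (3.23%) and 0 of 65 of the other ribosomal protein genes. Windows with at least 1 half-site made up 8.36% of all, 35.5% of those of the p53 target list and 9.23% of those of the other ribosomal protein genes. Rps27 had 1 half-site, and 0 were found in the windows of Rpl22 and Rpl22l1.

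Rpl22l1 was lower at every dose, and its values at each dose lay below all those of the controls. The log2 ratio was -0.23, 0.04, 0.15, -0.06 and -0.26 in controls 1 to 5. It was -0.83, -0.67, -0.45, -0.29 and -0.51 in mice 6 to 10 at 25 mg/kg/day. It was -0.94, -1.05, -0.91 and -0.87 in mice 12 to 15 at 50 mg/kg/day.

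The ratio of Rpl22l1 was -1.24, -1.02, -1.31, -1.04 and -0.98 in mice 16 to 20 at 75 mg/kg/day. The highest mouse at 25 mg/kg/day lay just below the lowest control, the groups at 25 and 50 mg/kg/day did not overlap, and those at 50 and 75 mg/kg/day did. The difference from control was -0.48 ± 0.12 (SE, n = 5 against 5) at 25 mg/kg/day, -0.88 ± 0.09 (n = 4 against 5) at 50 mg/kg/day and -1.05 ± 0.10 (n = 5 against 5) at 75 mg/kg/day. The last is a level of 0.484 times that of control, with a 95% interval of 0.411 to 0.569. With median centring the 3 differences were smaller, at -0.13, -0.51 and -0.21, beside 0.15, 0.14 and 0.35 for the median over all genes. Of the 19315 genes tested, 52 had a lower difference than Rpl22l1 in the 50 mg/kg/day group and 82 in the highest dose group.

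Rpl22, the standard subunit that binds RNA, was also lower, by less, but not under median centring. There its differences at the 3 doses were 0.14, -0.0034 and 0.47, beside 0.15, 0.14 and 0.35 for the median over all genes. The log2 ratio was -0.28, -0.34, -0.44, -0.59 and -0.57 in controls 1 to 5. At 25 mg/kg/day it was -0.58, -0.78, -0.55, -0.79 and -0.68 in mice 6 to 10, which overlapped the controls.

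Rpl22 stood at -0.75, -1.03, -0.79 and -0.70 in mice 12 to 15 at 50 mg/kg/day and at -0.91, -0.90, -1.17, -0.90 and -0.66 in mice 16 to 20 at 75 mg/kg/day. Both groups lay below every control and overlapped each other. The differences from control were -0.23 ± 0.08, -0.38 ± 0.09 and -0.46 ± 0.10 (SE) at 25, 50 and 75 mg/kg/day. A dimmer Rpl22 probe gave -0.02 ± 0.07, -0.32 ± 0.10 and -0.53 ± 0.10, further apart from the brighter probe at 25 mg/kg/day than at the higher doses. On the dimmer probe 3 of 4 mice at 50 mg/kg/day lay below every control, and mouse 14 (-0.87) lay above the lowest control (-0.88).

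Rps27l, the p53 target, was the only member that was higher in treated lungs, and its groups were in the order of dose. The log2 ratio was -0.46, -0.35, -0.12, -0.41 and -0.47 in controls 1 to 5. It was 0.24, 0.04, 0.11, -0.22 and -0.08 in mice 6 to 10 at 25 mg/kg/day, where 4 of 5 mice lay above every control.

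In mice 12 to 15 at 50 mg/kg/day the ratio of Rps27l was 0.48, 0.25, 0.28 and 0.39. It was 0.90, 0.81, 0.73, 0.57 and 0.64 in mice 16 to 20 at 75 mg/kg/day. Each of these groups lay above all mice at the dose below it. The difference from control was 0.38 ± 0.10 (SE, n = 5 against 5), 0.72 ± 0.09 (n = 4 against 5) and 1.09 ± 0.09 (n = 5 against 5) at 25, 50 and 75 mg/kg/day. At 75 mg/kg/day this was 2.14-fold with a 95% interval of 1.86 to 2.45, and 44 of all genes tested had a higher difference. With median centring the 3 differences were 0.69, 1.00 and 1.89, beside 0.15, 0.14 and 0.35 for the median over all genes.

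Rps27, the zinc finger subunit that is the partner of Rps27l, was lower, but less clearly so under median centring. There its differences at the 3 doses were 0.10, -0.27 and 0.37, beside 0.15, 0.14 and 0.35 for the median over all genes. The log2 ratio was 0.50, 1.04, 0.96, 0.84 and 0.88 in controls 1 to 5. It was 0.42, 0.53, 0.65, 0.58 and 0.73 in mice 6 to 10 at 25 mg/kg/day, where only mouse 6 lay below every control.

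Rps27 was at -0.05, 0.15, 0.37 and 0.24 in mice 12 to 15 at 50 mg/kg/day. Mice 16 to 20 at 75 mg/kg/day had 0.28, 0.43, 0.08, 0.23 and 0.09. Both groups lay below every control, and they overlapped each other. The differences from control were -0.26 ± 0.11, -0.66 ± 0.13 and -0.62 ± 0.11 (SE), and the step between 75 and 50 mg/kg/day was 0.04 ± 0.11.

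**Figure D1:**
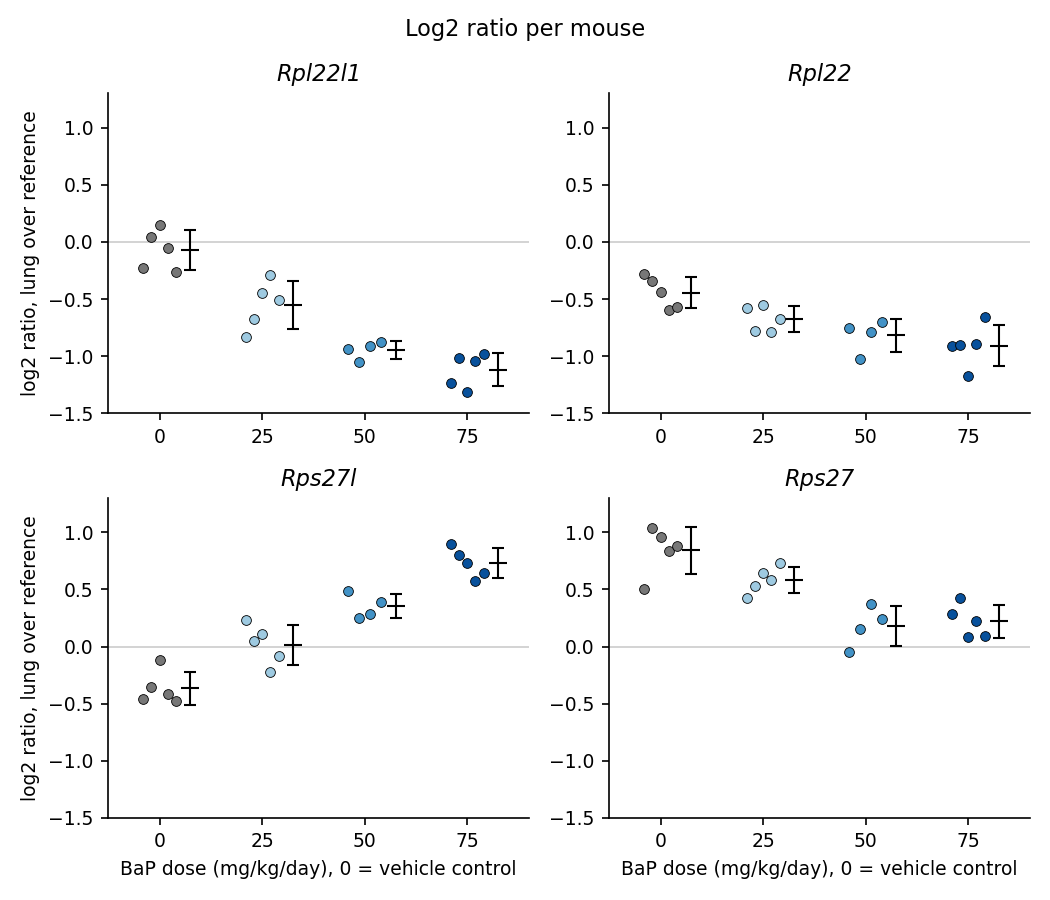
Log2 ratio of lung over reference for the 4 genes (vertical axis) by BaP dose (horizontal axis, mg/kg/day). Each point is 1 mouse, and the bar beside it gives the group mean and SD. Rps27l is highest at 75 mg/kg/day, between 0.57 and 0.90, and Rpl22l1 is lowest there, between -1.31 and -0.98.

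With the brighter Rpl22 probe, none of the 4 genes overlapped the controls at the higher doses: 3 were lower and 1 higher. The dimmer Rpl22 probe overlapped them at 50 mg/kg/day. Over all genes, 1.96% did not overlap the controls on the lower side and 2.54% on the higher side at 50 mg/kg/day, and 1.65% and 3.05% at 75 mg/kg/day. Only Rpl22l1 was clear of the controls at 25 mg/kg/day, with 0.456% of all genes lower in that way and 0.995% higher. Since these contrasts picked the members, nothing is read from the counts.

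The paralog was set against its partner within each array, which cancels any shift that the array gives to both probes. Only the change of this difference between groups is read, since the level of a probe depends on the probe. The ratio of Rps27l to Rps27 was higher at each dose. Rps27l minus Rps27 averaged -1.21 ± 0.18 (SD, n = 5) in controls, -0.57 ± 0.26 (n = 5) at 25 mg/kg/day, 0.17 ± 0.26 (n = 4) at 50 mg/kg/day and 0.51 ± 0.14 (n = 5) at 75 mg/kg/day.

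Relative to the control mean, Rps27l minus Rps27 was 1.02, 0.72, 0.67, 0.40 and 0.39 higher in mice 6 to 10, 1.74, 1.31, 1.12 and 1.35 higher in mice 12 to 15, and 1.82, 1.59, 1.86, 1.56 and 1.76 higher in mice 16 to 20. The controls lay between -0.18 and 0.25 on this scale, below every treated mouse. The change was 0.64 (95% interval 0.31 to 0.97), 1.38 (1.03 to 1.73) and 1.72 (1.48 to 1.95) on the log2 scale at 25, 50 and 75 mg/kg/day, the last a 3.29-fold ratio of the pair (2.79 to 3.87). Without the arrays marked for evaluation the changes were 0.76, 1.38 and 1.83.

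Rpl22l1 minus Rpl22 moved the other way and by less. It averaged 0.37 ± 0.21 (SD, n = 5) in controls, 0.13 ± 0.27 (n = 5) at 25 mg/kg/day, -0.13 ± 0.07 (n = 4) at 50 mg/kg/day and -0.21 ± 0.11 (n = 5) at 75 mg/kg/day. The change from control was -0.25 (95% interval -0.60 to 0.11) at 25 mg/kg/day, an interval that holds 0 and takes no account of slides. Within slides it was lower in the treated mouse on 4 of 4 slides, by a mean of -0.25. Single slides ranged from -0.42 to -0.03, which is not a 95% interval.

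The change of Rpl22l1 minus Rpl22 was -0.50 at 50 mg/kg/day (95% interval -0.77 to -0.23). At the highest dose it was -0.58 (95% interval -0.83 to -0.34). The pair values use the brighter Rpl22 probe. Averaged over both Rpl22 probes instead, the changes were -0.35, -0.53 and -0.55 at 25, 50 and 75 mg/kg/day. How far the change grew with dose thus depended on the probe. Single mice at 75 mg/kg/day lay between -0.70 and -0.49 relative to the control mean, and controls between -0.32 and 0.21. Mice at both higher doses lay below every control. Without the arrays marked for evaluation the changes were -0.28, -0.52 and -0.59. So the paralog of one pair was higher relative to its partner in treated lungs, and the paralog of the other was lower.

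**Figure D2:**
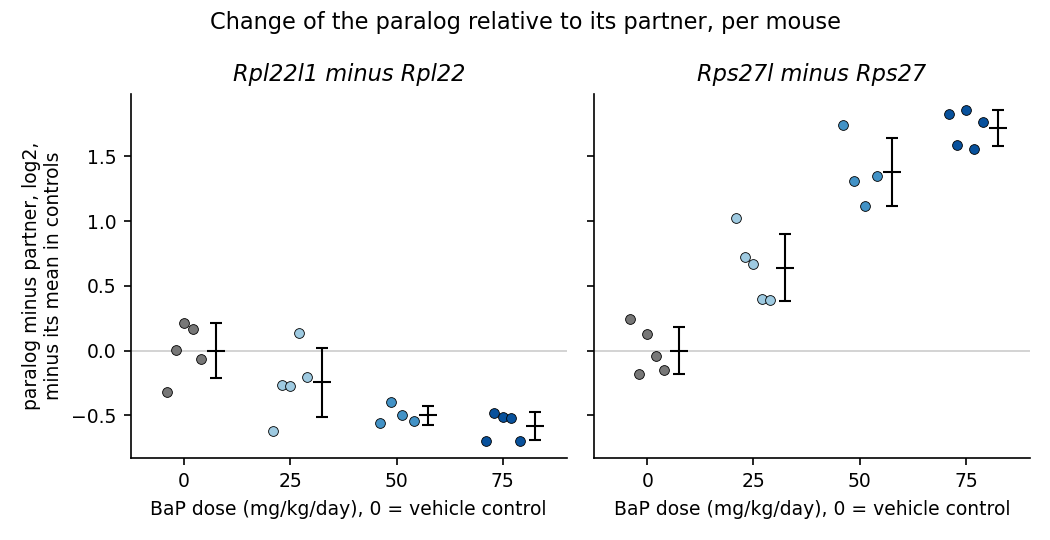
Log2 ratio of each paralog minus that of its partner on the same array, minus the control mean (vertical axis), by BaP dose (horizontal axis, mg/kg/day). Points are mice, and bars give mean and SD. Rps27l minus Rps27 lies between 1.56 and 1.86 at 75 mg/kg/day, and Rpl22l1 minus Rpl22 between -0.70 and -0.49.

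The arrays lay on 6 slides, and each of them held several dose groups. As a fraction of the variance, the dose group accounted for 0.888 of Rpl22l1, 0.656 of Rpl22, 0.914 of Rps27l and 0.777 of Rps27, and slide for 0.0845, 0.173, 0.139 and 0.235. For the pairs, the dose group accounted for 0.656 of Rpl22l1 minus Rpl22 and 0.926 of Rps27l minus Rps27, and slide for 0.386 and 0.13. Dose group and slide were each taken alone, so their fractions overlap and do not add up. The members were picked by their values across doses, so the dose fractions are a description and are not weighed against those of slide. Within slides that held a treated and a control mouse, Rps27l was higher and the other 3 genes were lower in the treated mouse on 4 of 4, 3 of 3 and 4 of 4 slides for doses of 25, 50 and 75 mg/kg/day. The control of a slide served for every dose on it, so the counts at the 3 doses share controls and are not independent. Since the dose contrasts picked the members, the directions are not separate evidence. The within-slide mean at 75 mg/kg/day was -1.07 for Rpl22l1, -0.50 for Rpl22, 1.02 for Rps27l and -0.63 for Rps27. The within-slide change of the pair with rising dose was 0.60, 1.42 and 1.65 for Rps27l minus Rps27 and -0.25, -0.36 and -0.57 for Rpl22l1 minus Rpl22.

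The channels were also taken apart after scaling the arrays to a common intensity distribution. The reference RNA is the same on every array, so its channel was followed too. Both channels were rebuilt from the normalized ratio and the scaled mean intensity, so each carries part of the normalization and the reference is not an independent check. For Rps27l the difference at 75 mg/kg/day was 1.05 ± 0.08 (SE) in the lung channel and -0.04 ± 0.04 in the reference channel. For Rpl22l1 it was -0.95 ± 0.14 in lung and 0.10 ± 0.07 in the reference.

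Rpl22 at this dose differed by -0.36 ± 0.09 in lung and 0.11 ± 0.05 in the reference. Rps27 differed by -0.33 ± 0.15 in lung and 0.30 ± 0.07 in the reference. At 25 mg/kg/day Rps27 differed by -0.11 ± 0.14 in lung and 0.15 ± 0.05 in the reference. At 50 mg/kg/day these were -0.43 ± 0.16 and 0.23 ± 0.08. At 75 mg/kg/day nearly the same distance as in the lung thus lay in the reference channel of Rps27, the brightest of these probes. A shift of the Rps27 probe alone is not cancelled in Rps27l minus Rps27. How far it set the lower Rps27 ratio and the change of the pair was not tested. How much of the reference difference came from the normalization was not tested either.

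**Figure D3:**
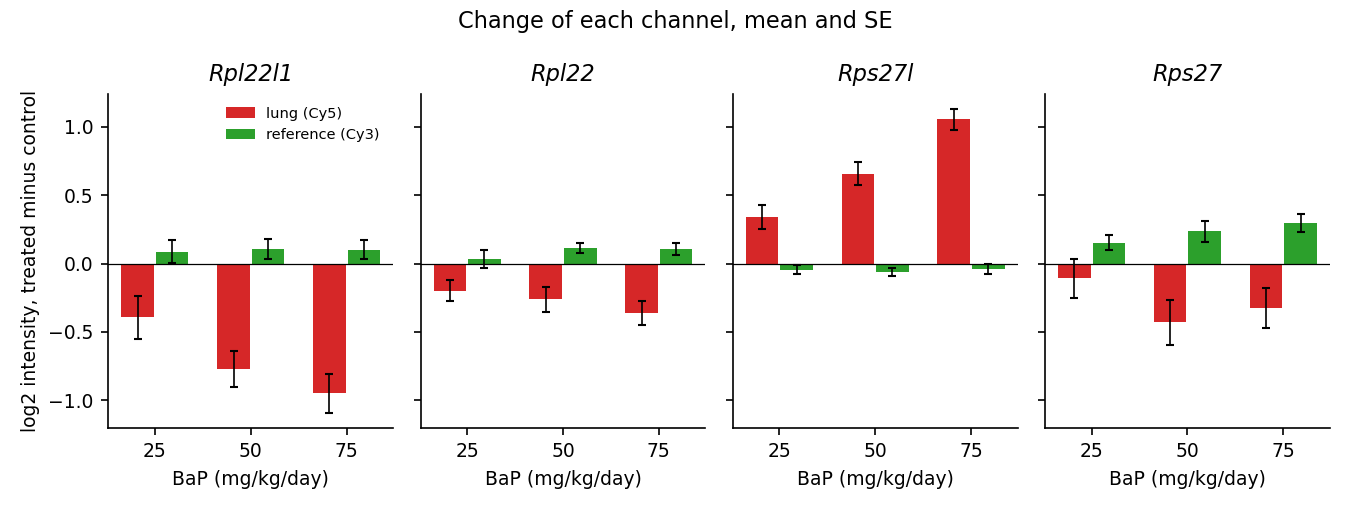
Difference from control in log2 intensity (vertical axis) of the lung channel (Cy5, left bar of each pair) and of the reference channel (Cy3, right bar) at each BaP dose (horizontal axis, mg/kg/day). Bars start at 0 and error bars are SE. The reference channel stays between -0.06 and -0.04 for Rps27l and reaches 0.30 for Rps27.

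Many other cytoplasmic ribosomal protein genes fell at the higher doses, a direction that the list's median lost under median centring, and Rpl22l1 lay below all of them. The 77 on the list were tested with limma across all genes at an adjusted p of 0.05. Of these, 0 changed at 25 mg/kg/day (18 were lower at an unadjusted p under 0.05), 21 fell in the 50 mg/kg/day group and 47 in the highest dose group. The number that rose was 0 at each dose by limma, also at an unadjusted p under 0.05. The number that fell in those groups was 5 and 15 with an offset of 10, 4 and 8 in the authors' deposited table and 44 and 65 with slide as a block. Median centring left 0 and 0 (also 0 and 0 lower at an unadjusted p under 0.05). The 21 became 34 from the scanner software's processed signals, 11 without the marked arrays, 10 without control 2, mouse 13 or mouse 15, 12 without mouse 12 and 13 without control 3 or 5. Of all genes, 0.0518%, 1.08% and 4.14% were called at 25, 50 and 75 mg/kg/day, of which 0.0104%, 0.337% and 1.51% of all genes were lower. The split was 144 higher and 65 lower at 50 mg/kg/day and 508 and 291 at the highest dose. From the processed signals it was 137 and 378, then 566 and 784, and with median centring 9 and 0, then 531 and 3.

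The median difference of the 77 genes was -0.15, -0.34 and -0.47 at 25, 50 and 75 mg/kg/day, against 0.01, 0.00 and -0.01 over all genes. With median centring in place of intensity-dependent loess these medians were 0.20, 0.04 and 0.47, against 0.15, 0.14 and 0.35 over all genes. The sign of the family median against control thus turned with the handling of spot intensity. Set beside the median of all genes, the family was still lower at 50 mg/kg/day and was above it at 25 and 75 mg/kg/day. The lowest at 75 mg/kg/day were Rps21 (-0.80 ± 0.15, limma adjusted p = 0.0038), Rplp1 of the stalk (-0.74 ± 0.21, adjusted p = 0.051) and Rpl13 (-0.72 ± 0.09, adjusted p = 6.65e-05). The highest were Rps19 (0.23 ± 0.15), Rpl21 (-0.06 ± 0.09) and Rpl4 (-0.11 ± 0.18), with an adjusted p of 0.47 or more.

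Within this family Rpl22 was ordinary: 40 of the 77 were lower than it and 37 higher at 75 mg/kg/day. Rps27 had 14 below it at that dose and 0 at 50 mg/kg/day. Rpl22l1 had 0 below it at every dose, and Rps27l had 0 above it. Markers of lymphocytes were followed in the same mice. The mean of 11 B cell markers, relative to the control mean, was -0.52 to -0.08 at 50 mg/kg/day and -0.43 to -0.13 at 75 mg/kg/day, against -0.26 to 0.31 in controls. That of 9 T cell markers was -0.33 to 0.01 and -0.28 to 0.02, against -0.17 to 0.18 in controls. By limma, 3 B cell markers fell at 75 mg/kg/day. No T cell marker did (0, with 3 lower at an unadjusted p under 0.05), and 0 of either list changed at 50 mg/kg/day (5 B cell and 1 T cell marker lower at an unadjusted p under 0.05). In controls, 10 of the 11 B cell and 2 of the 9 T cell markers were above the reference. Their part in the lower ribosomal protein ratios was not tested.

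Of 7 other paralogs of ribosomal proteins, 4 were tested, and limma called 0 at any dose (1, 2 and 1 were lower at an unadjusted p under 0.05). Rpl7l1 stood at 0.12 ± 0.07 (SE) at 75 mg/kg/day, Rpl36al at -0.09 ± 0.08 and Rpl39l at -0.55 ± 0.21. Rpl3l, the form made in heart and skeletal muscle, stood at -0.93 ± 0.62, and its controls include the one with high muscle markers. The smallest adjusted p by limma among them was 0.175.

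Rps27l lay in the middle of the p53 targets. Of 28 targets tested, the number that rose with doses of 25, 50 and 75 mg/kg/day was 7, 13 and 17, and 0, 0 and 1 fell by limma (1, 0 and 2 were lower at an unadjusted p under 0.05), while 0.0414%, 0.746% and 2.63% of all genes were called higher. The 7 became 2 without mouse 7 or mouse 8, 3 without control 4, 4 without control 2 or 3, 1 without the marked arrays and 0 with median centring (12 higher at an unadjusted p under 0.05), and the 13 became 5 with median centring. Their median difference was 0.25, 0.69 and 0.83. Rps27l had 11, 14 and 13 of the 28 above it.

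The largest differences of the targets at 75 mg/kg/day were those of the cell cycle inhibitor Cdkn1a (3.28 ± 0.23, limma adjusted p = 3.32e-08), the stress cytokine Gdf15 (3.16 ± 0.20, adjusted p = 1.94e-08) and the cyclin Ccng1 (2.30 ± 0.19, adjusted p = 6.44e-07). The lowest were Perp (-0.84 ± 0.35, adjusted p = 0.21), Sesn1 (-0.43 ± 0.10, adjusted p = 0.019) and Ddb2 (-0.11 ± 0.09, adjusted p = 0.58). Rps27l thus differed about as far as a typical member of this list.

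**Figure D4:**
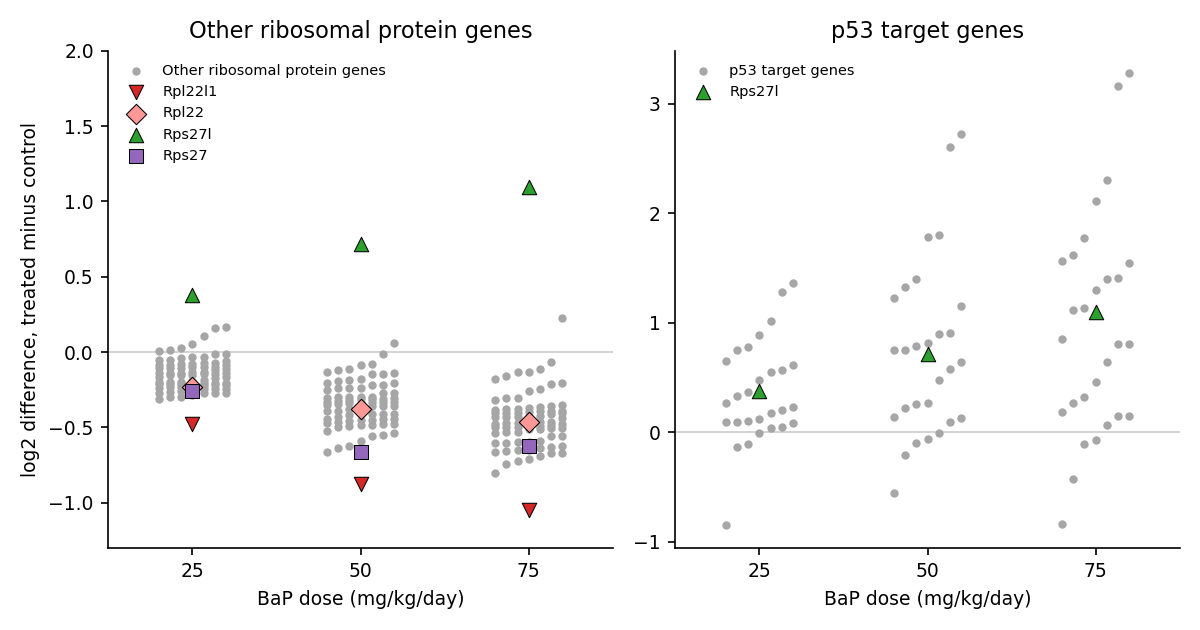
Log2 difference from control (vertical axis) at each BaP dose (horizontal axis, mg/kg/day) of 77 other ribosomal protein genes (left, grey) and of 28 p53 target genes (right, grey), with all 4 genes as coloured symbols on the left and Rps27l alone on the right. Grey points are spread sideways only for legibility. Rpl22l1 lies below and Rps27l above every other ribosomal protein gene at each dose, and Rps27l lies inside the range of the p53 targets.

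The genes most like each member, by Pearson correlation of the log2 ratio over the 19 arrays, followed the same division. The arrays share dose groups and slides, so these values describe likeness only. For Rps27l they were Bax, which permeabilises mitochondria in apoptosis (r = 0.965, rho = 0.970), Ccng1 (r = 0.957, rho = 0.963) and Cdkn1a (r = 0.955, rho = 0.953). After subtraction of the group means these r were 0.605, 0.618 and 0.544.

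For Rpl22l1 they were Rpl38 (r = 0.940, rho = 0.917), Rps12 (r = 0.917, rho = 0.956) and Rpl13 (r = 0.910, rho = 0.949), with 0.577, 0.418 and 0.36 after subtraction of the group means. For Rpl22 they were Rpl34 (r = 0.952, rho = 0.937), Naca, a subunit of the complex that binds nascent chains at the ribosome (r = 0.948, rho = 0.946), and Rpl17 (r = 0.938, rho = 0.919). For Rps27 they included Rps23 (r = 0.964, rho = 0.960) and the ribosomal scaffold gene Rack1 (r = 0.947, rho = 0.939).

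Subtraction of the group means left 0.902, 0.862 and 0.892 for the genes like Rpl22 and 0.895 and 0.81 for those named for Rps27, more than for the paralogs. Between partners, r was 0.813 for Rpl22l1 and Rpl22 and -0.78 for Rps27l and Rps27 over the 19 arrays. After subtraction of the group means it was 0.262 and 0.0334, so in these arrays neither paralog followed its partner closely within dose groups. With 19 arrays such an r is imprecise.

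Single-gene values depended on how spot intensity was handled, and the pair values much less. In the authors' deposited table the differences at 75 mg/kg/day were smaller for Rpl22 (-0.19) and Rps27 (-0.24) and larger for Rps27l (1.33), and with median centring Rpl22 (0.47) and Rps27 (0.37) were above control, as was the median of all genes (0.35). Of 136 recomputed values of the pair changes, 27 were identical to the reported ones, mostly under settings that leave these probes untouched. The other 109, covering other corrections, slide as a block and the loss of each mouse, kept the sign in 109. At the highest dose they ranged over 1.52 to 1.83 for Rps27l minus Rps27 and -0.84 to -0.53 for Rpl22l1 minus Rpl22. All these values reuse the same mice and the contrasts that picked the members, so the kept signs are not separate evidence.

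**Figure D5:**
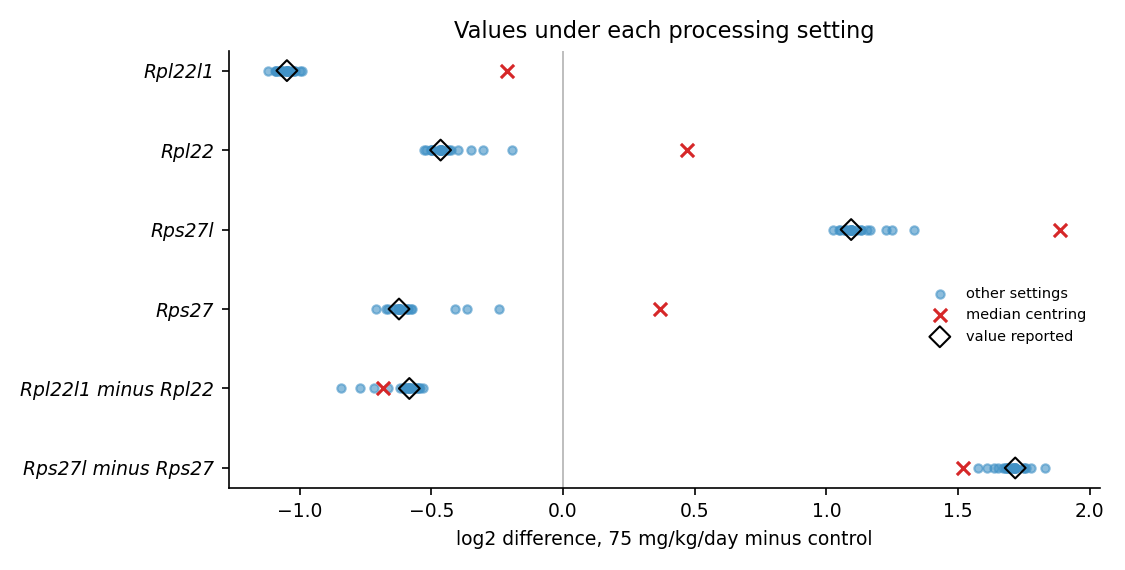
Log2 difference between 75 mg/kg/day and control (horizontal axis) for each gene and each pair (rows) under every processing setting. Diamonds are the values reported, crosses median centring and dots the other settings. Rpl22 and Rps27 cross 0 under median centring, and both pair values keep their side.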

How the data were processed

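Per the file headers, the authors deposited spot intensities of both channels as read by Feature Extraction 10.7.3.1. The median spot and background intensities were background-corrected with normexp (offset 50) and normalized within arrays by loess in limma 3.58.1 (R 4.3.3), and outlier spots (0.29%) were left out. The table deposited by the authors holds log2 ratios, which matched loess ratios without background subtraction (r 0.995 to 0.998 per array). Its column medians were -0.053 to -0.033, and how it was centred is not stated in those sources.

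Probes well above background in lung on at least 4 arrays were kept. Probes were named by accession through RefSeq (GRCm38.p6; 23374 of 41174 named), and the brightest probe stood for a gene. A mean per dose group was fitted over 19 arrays in limma (lmFit, eBayes), with Benjamini-Hochberg adjustment over 19315 genes. Errors of members are from the pooled SD of the 2 groups compared. Errors of other genes are from limma. The fit was tested on simulated data.

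Named genes were the members, the tested paralogs, the 3 highest and 3 lowest of the ribosomal protein and p53 target lists at 75 mg/kg/day, and the 3 genes most correlated with each member, of which 1 is not reported here. Members and lists were chosen with earlier results of these data known. Each array is 1 numbered mouse, so p-values set a difference against the spread between arrays of single mice. In the main fit this spread holds mouse, array and slide together. The number of arrays limits the precision.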

Additional observations from a re-analysis of the deposited data

How the results depend on the processing

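The cause of these shifts was not tested. The number of genes called by limma at 25 mg/kg/day (10) was 0 with median centring (539 at an unadjusted p under 0.05), 16 from the processed signals and 3 without the marked arrays. At 50 mg/kg/day (209) it was 9 with median centring, 123 with an offset of 10, 515 from the processed signals, 95 without the marked arrays and 407 in the fit blocked by slide. At 75 mg/kg/day (799) it was 515 with an offset of 10, 1350 from the processed signals and 1766 with slide as a block. Leaving out single mice gave 3 to 13, 75 to 201 and 445 to 977; counts moved by over 1.5 times at 25 mg/kg/day without control 2 or 3 (5 each), control 4 (4) and mouse 7 or 8 (3 each), at 50 mg/kg/day without control 2 (98), control 4 (121) and mice 12 (107), 13 (130) and 15 (75), and at 75 mg/kg/day without control 2 (526) and mice 16 (445) and 18 (449). With median centring Rpl22 was at 0.14, -0.0034 and 0.47, Rps27 at 0.10, -0.27 and 0.37 and the ribosomal protein median at 0.20, 0.036 and 0.47 at the 3 doses. Median centring also moved the median of all genes to 0.15, 0.14 and 0.35. Rpl22l1 minus Rpl22 at 75 mg/kg/day was -0.77 from the processed signals and -0.84 in the authors' deposited table, and Rps27l minus Rps27 was 1.52 with median centring. Without single mice these pair changes were -0.66 to -0.53 and 1.67 to 1.78 at 75 mg/kg/day, -0.58 to -0.45 and 1.26 to 1.47 at 50 mg/kg/day, and -0.34 to -0.15 and 0.54 to 0.70 at 25 mg/kg/day. Scaling between arrays (Aquantile) leaves log ratios as they are by construction. The settings without the marked arrays and within slides for pairs, and those for list medians, were chosen after seeing the data. No paired analysis was possible because the groups share no replicate numbers, which concerns numbers only: shared slides were used as a block and for differences within slides.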
